A study of Mus musculus with 6 samples.

Results

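Havcr2, Tigit, Lag3 and Cd160 encode coinhibitory receptors of T cells, and Tnfrsf4 and Tnfrsf9 encode costimulatory receptors of the TNF receptor family. Chromatin accessibility at these 6 genes was taken from every peak that carried one of their symbols, which gave 43 of the 282898 deposited peaks and 6 of the 19109 genes named in the list. The assay was ATAC-seq, which marks open chromatin by where a transposase can insert sequencing adaptors. Untreated T follicular helper (Tfh) cells of C57BL/6 mice were sorted into the populations Tfh21, Tfh214 and Tfh4, from mice with intact Stat6 (WT) and from Stat6 knockout mice (KO). Cells came from 10 mice per genotype, and a library was made from 50000 cells of each of the 6 combinations. The nature of the Stat6 allele, the tissue and the age of the mice were not given in the sources used here.

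Coinhibitory receptors lower the response of a T cell once it has been activated. TIM-3, the product of Havcr2, and the products of Lag3 and Tigit are induced after stimulation, accumulate on chronically stimulated T cells, and bind ligands on other cells. OX40, the product of Tnfrsf4, and 4-1BB, the product of Tnfrsf9, are also induced by activation but signal through TRAF adaptors to NF-kB and promote survival and expansion. Tfh cells help B cells in germinal centres and are known for high PD-1, another coinhibitory receptor, and for TIGIT. STAT6 is the transcription factor that carries the signal of the IL-4 receptor.

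The libraries held 798555 to 1373218 reads in peaks, and the median peak held 14 reads over all 6 libraries, so counting set the precision at single peaks. Values are CPM, reads scaled to a common total in peaks, as the authors deposited them, and whole reads were recovered from them. Where 3 values of a genotype stand together they are in the order Tfh21, Tfh214, Tfh4. Every interval given is an exact 95% interval for counting error only. Each group was 1 library, with no replicate, so a ratio compares libraries, and an effect of genotype cannot be told apart from one of the pooled mice or of library preparation. In bulk cells, a larger share of cells with open chromatin and more open chromatin per cell cannot be told apart. Peaks at a transcription start site (TSS) took 27.6% to 36.4% of the reads, most in KO Tfh21 and least in WT Tfh4. At Stat6 the peaks summed to 42.2 to 54.3 CPM in the WT libraries and 54.2 to 63.9 CPM in the KO libraries. The accessibility of the targeted gene therefore did not set the genotypes apart, and the deleted part was not given. All 8 Tfh marker genes had reads in every library (295.7 to 424.3 CPM summed). Of 9 B cell markers 7 had peaks, with 124 to 191 CPM summed. Of 10 markers of CD8 T and natural killer cells 8 had peaks, with 20.04 to 39.3 CPM and Gzmb at 0 in WT Tfh21 and KO Tfh214, and the 9 myeloid markers summed to 86.4 to 117 CPM.

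The 6 genes differed in how open they were and in where their reads lay. Divided by the length of its peaks, mean accessibility was highest at Tigit, with 19.1 CPM per kb, followed by Tnfrsf9 with 17.0 and Tnfrsf4 with 16.2. Lag3 stood at 11.3, Cd160 at 8.65 and Havcr2 at 6.69 CPM per kb, on the same scale on which the median of all genes was 8.28. Havcr2 was thus the least open of the 6 per length, at percentile 42.2 of all genes, and Tigit the most open, at percentile 79.9. On this scale the Tfh marker genes ran from 7.43 at Cd40lg to 30.6 at the germinal centre homing receptor gene Cxcr5. The inhibitory receptor genes Btla, Ctla4 and Pdcd1 stood at 29.7, 26.0 and 21.4. Other inhibitory receptor genes were as low as Havcr2 or lower, with Cd244 at 6.04, Klrg1 at 5.13 and Lair1 at 4.73. Markers of CD8 T and natural killer cells ran from 3.00 at Gzmb to 7.65 at Nkg7, with Cd8b1, a gene of CD8 T cells, at 3.93. At the start site lay 80.6% of the reads of Tnfrsf4 and 60.0% of those of Tigit, 43.3% at Lag3 and 22.1% at Havcr2. Only 10.8% of the reads of Tnfrsf9 and none of those of Cd160 lay there. Of the 43 peaks, 8 were at a TSS, 18 in introns, 13 in exons of the 5′ UTR, 2 in coding exons and 2 at a transcript end, by the deposited annotation. Only 7 of them (16.3%) held 30 reads or more, against 13.6% of all peaks with a symbol.

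**Figure D1:**
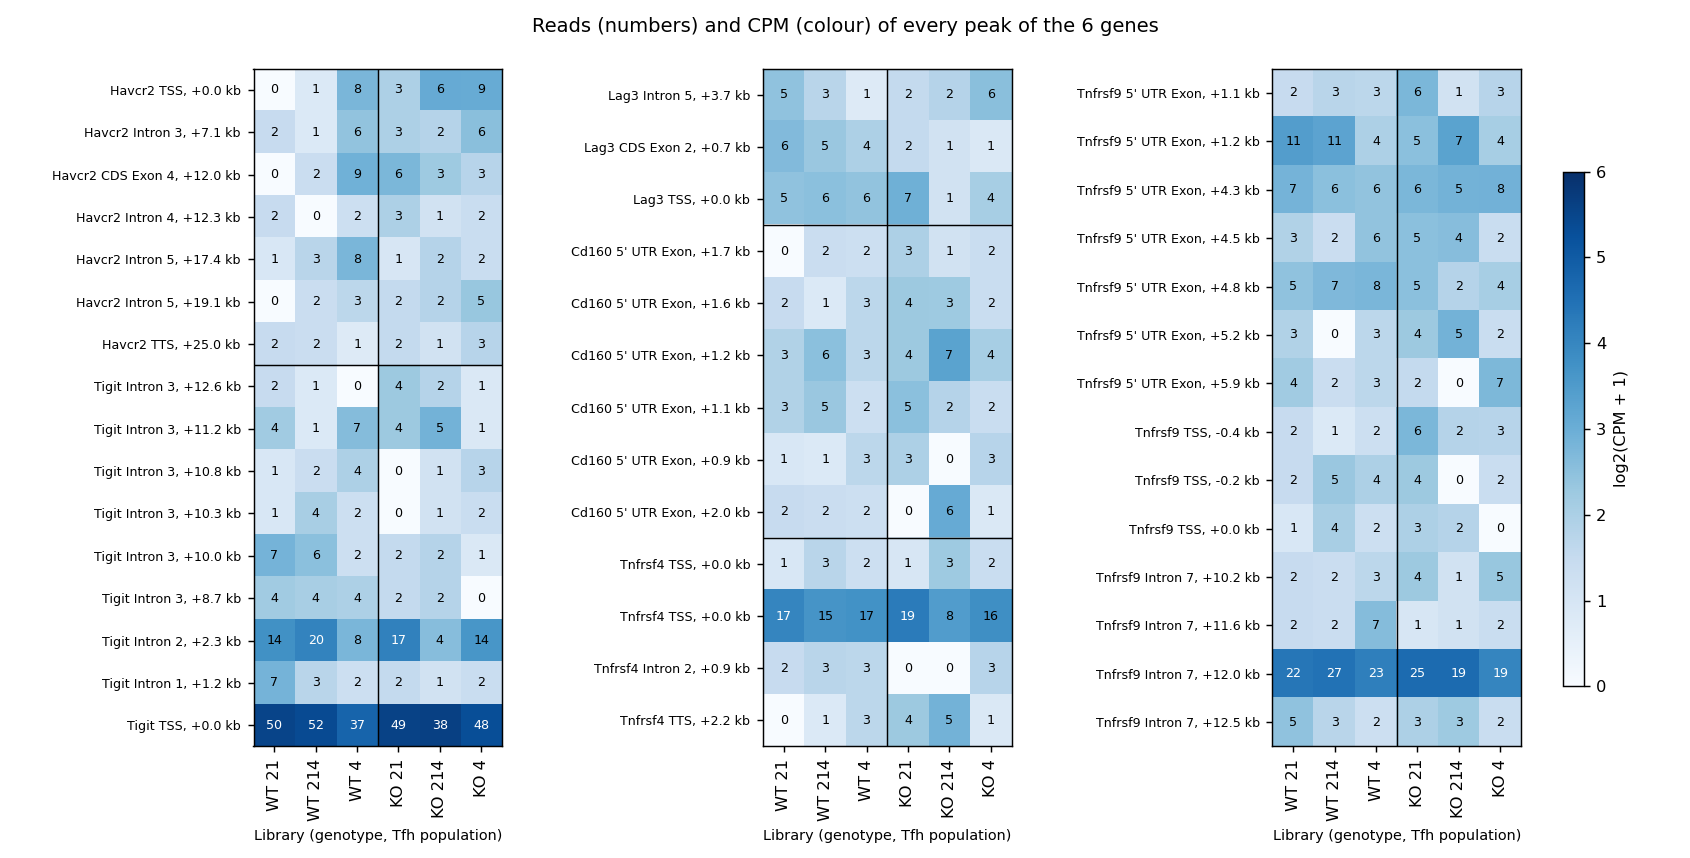
Every peak of the 6 genes, with its section of the gene and its distance in kb from the start of its annotated transcript (rows) and the 6 libraries (columns). Numbers are reads and colour is log2(CPM + 1). The peak at the Tigit start site (37 to 52 reads) and the intron 7 peak of Tnfrsf9 (19 to 27 reads) were strong in every library, while no peak of Havcr2 exceeded 9 reads in any library.

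Havcr2 encodes TIM-3 and had 7 peaks on the plus strand of chromosome 11, which held 122 reads in all. It held 6.23 CPM in WT Tfh21 (7 reads), 8.65 in WT Tfh214 (11 reads) and 26.9 in WT Tfh4 (37 reads). In the KO libraries it held 19.0 CPM in Tfh21 (20 reads), 21.3 in Tfh214 (17 reads) and 24.2 in Tfh4 (30 reads). WT Tfh21 and WT Tfh214 were thus low, and WT Tfh4 and all 3 KO libraries were high. In the order of levels the only neighbours whose ratio lay off 1 beyond counting error were KO Tfh21 over WT Tfh214, at 2.20 (95% interval 1.005 to 5.08), and this interval reached 1 after median-of-ratios scaling, which sets library totals by the median gene (2.03, 0.929 to 4.70). The low pair did not differ from each other beyond counting error (WT Tfh214 over WT Tfh21, 1.39, 0.491 to 4.22), nor did neighbours among the 4 high libraries.

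**Figure D2:**
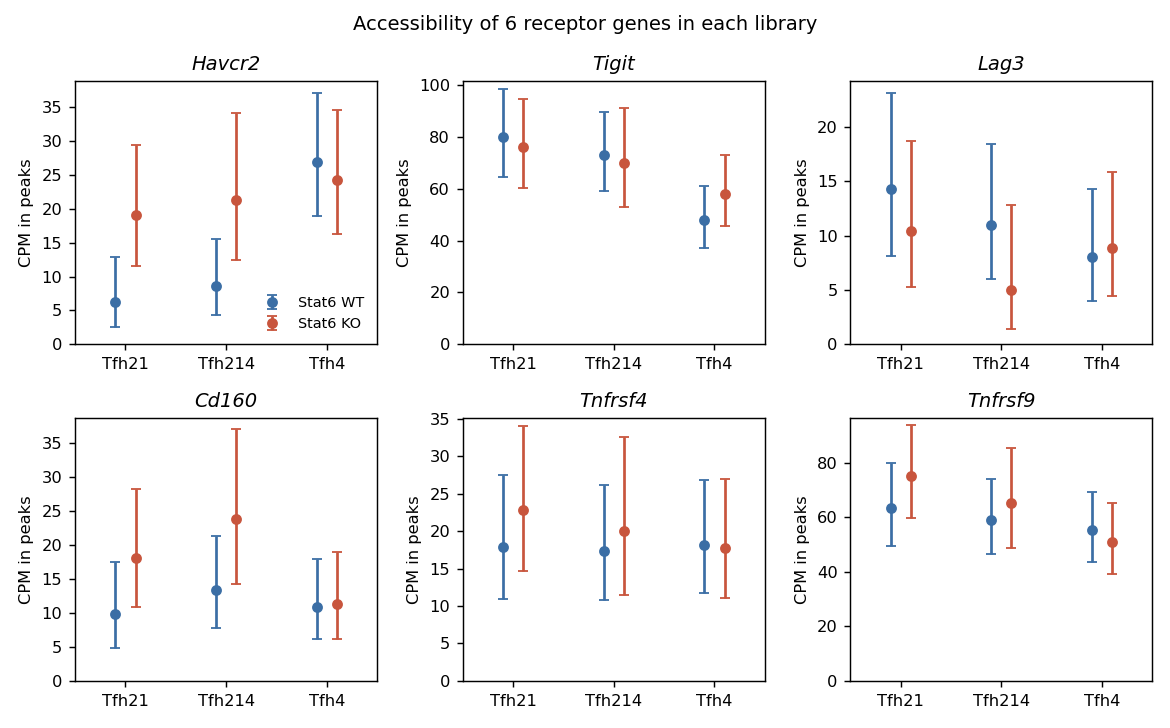
CPM of each gene, summed over its peaks, in WT (blue) and KO (red) libraries of the 3 populations, 1 library per point. Bars are exact Poisson 95% intervals, for counting error only. Havcr2 was at 6.23 and 8.65 CPM in WT Tfh21 and WT Tfh214 and at 19.0 to 26.9 CPM in the other libraries, while Tigit was lowest in WT Tfh4 (48.1 CPM) and KO Tfh4 (58.1 CPM).

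Within WT, Havcr2 stood 4.32-fold higher in Tfh4 than in Tfh21 (1.90 to 11.5) and 3.12-fold higher in Tfh4 than in Tfh214 (1.56 to 6.77). Within KO the same ratios were 1.27 (0.699 to 2.36) and 1.14 (0.608 to 2.20). By genotype, KO stood 3.05-fold over WT in Tfh21 (1.24 to 8.54) and 2.46-fold in Tfh214 (1.09 to 5.81), against 0.899 in Tfh4 (0.536 to 1.495). These ratios share libraries and are not independent of each other. By CPM, KO was above WT at 7 of 7 peaks in Tfh21, 6 of 7 in Tfh214 and 5 of 7 in Tfh4, against 52.6%, 47.1% and 50.5% of all peaks with a symbol. By reads KO held more at 5, 4 and 3 of the 7 and as many at 2, 1 and 2, and equal reads count as higher through the smaller KO totals. Pairs of libraries were also compared by fold among genes for which the higher library held 20 reads, which left 4 of the 6 members for KO over WT in Tfh21 and for WT Tfh4 over each other WT library. Havcr2 met that minimum only through the library in which it was high, so its place in these counts is a description. Of those 4 members Havcr2 alone was higher by 1.5-fold or more in each, a size reached by 5.4%, 7.04% and 7.78% of genes, and none was lower by as much in KO Tfh21 over WT Tfh21, as 5.28% of genes were. In the other 6 pairs of libraries no measured member, 3 or 4 in each, reached 1.5-fold either way. Members under 20 reads in both libraries were left out of this count. For KO over WT in Tfh214 these were Havcr2 at 2.46, Cd160 at 1.78 and Lag3 at 0.455. For KO Tfh4 over KO Tfh214 they included Cd160 at 0.475. Genes higher and lower by that size made up 5.11% and 6.91% for KO over WT in Tfh214 and 5.06% and 7.83% in Tfh4. They made up 5.15% and 4.44% for WT Tfh214 over WT Tfh21 and 3.41% and 5.72% for KO Tfh214 over KO Tfh21. For KO Tfh4 they made up 7.65% and 8.41% over KO Tfh21 and 7.14% and 6.07% over KO Tfh214.

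The KO to WT ratio of Havcr2 in Tfh4 was 0.295 of that in Tfh21 (0.0935 to 0.858) and 0.365 of that in Tfh214 (0.133 to 0.979), by a conditional exact interval over the reads of 4 libraries. An interval below 1 was found for 2.96% and 3.9% of genes, and for no other member, and one above 1 for 2.34% and 2.76% of genes and no member. Between Tfh214 and Tfh21 no member had an interval off 1 (1.86% of genes above, 1.68% below), with Havcr2 at 0.807 (0.215 to 2.91). The second interval reached 1 under median-of-ratios scaling (0.383, 0.140 to 1.03), and the first did not (0.313, 0.0995 to 0.913). Pooled over the populations, KO stood 1.49-fold over WT (1.02 to 2.16), an interval above 1 that 7% of genes also had and no other member did, while none of the members was among the 4.84% below 1. With median-of-ratios scaling this interval reached 1 (1.43, 0.988 to 2.09), and 3.8% of genes lay above 1 under it. Pooled over the genotypes, Tfh4 stood 2.07-fold over Tfh21 (1.303 to 3.36) and 1.90-fold over Tfh214 (1.20 to 3.06), with intervals above 1 also under the other scaling. Of all genes 5.96% and 4.5% had an interval above 1 there (9.09% and 6.22% after that scaling), and of the members Havcr2 alone did. No member had an interval off 1 for Tfh214 against Tfh21, where 2.94% of genes lay above and 3.34% below.

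The reads of Havcr2 were spread over its peaks. The TSS peak (chr11:46267976-46268529, mm9) ran from 457 bases before the start to 96 bases after it and held 0, 1 and 8 reads in WT and 3, 6 and 9 in KO. WT Tfh21 was at 0 there, below a fixed floor of 3 reads or 2.67 CPM, which is not an exact interval. WT Tfh4 was at 5.83 CPM. The peak in coding exon 4 (chr11:46280412-46280658) held 0, 2 and 9 reads in WT and 6, 3 and 3 in KO, so that both peaks were lowest in WT Tfh21. The TSS peak alone stood 2.44-fold over WT in KO when pooled (1.04 to 6.17). The share of all reads at start sites was also higher in KO, at 36.4%, 34.9% and 29.7% against 31.5%, 31.0% and 27.6% in WT. The part of that share in this ratio was not tested. With each peak left out in turn, the ratio of WT Tfh4 over WT Tfh21 ran from 3.27 to 5.89 with all 7 intervals above 1. The pooled KO to WT ratio ran from 1.2996 to 1.76 with 3 of 7 intervals above 1.

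The promoter windows of Havcr2 and Tigit, the members whose Tfh4 ratios lay off 1 under both scalings, lay inside their TSS peaks by distance from the start site. Both are the 250 bases before the start, 5′ to 3′ on the strand of the gene, from RefSeq on GRCm38.p6, in which 5 of the 6 members had an entry. Havcr2 is chr11:46454681-46454930 on the plus strand and Tigit is chr16:43664185-43664434 on the minus strand. Capitals mark an AP-1 motif (TGANTCA) in Havcr2 and an NFAT motif (GGAAAA on the other strand) in Tigit.
Havcr2: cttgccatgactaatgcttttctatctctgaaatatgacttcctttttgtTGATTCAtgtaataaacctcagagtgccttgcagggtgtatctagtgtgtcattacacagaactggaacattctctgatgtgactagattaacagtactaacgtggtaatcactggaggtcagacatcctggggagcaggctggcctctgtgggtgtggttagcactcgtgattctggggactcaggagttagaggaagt
Tigit: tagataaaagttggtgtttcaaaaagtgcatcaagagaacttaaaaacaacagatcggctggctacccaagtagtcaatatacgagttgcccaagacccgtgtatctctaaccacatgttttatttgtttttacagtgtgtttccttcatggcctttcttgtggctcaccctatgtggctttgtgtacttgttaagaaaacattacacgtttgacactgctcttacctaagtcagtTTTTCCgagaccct
The AP-1 letters began 200 bases before the start of Havcr2, and 6.75% of 32851 promoter windows of the same length held that motif on either strand. The NFAT letters began 14 bases before the start of Tigit and were present in 20.4% of windows. Neither window held the STAT motif TTCNNNGAA, present in 7.02% of windows, or the form with 4 spacer bases that STAT6 is known to prefer, present in 5.85%. Of the 7 windows of the 5 members the 3-spacer form was found in 2, at a start of Tnfrsf9 (136 bases before it) and a start of Cd160 (234 bases before it). AP-1 was also found at a start of Tnfrsf9 and NFAT at its other start, so each of these was in 2 of the 7 windows. A match is a description of the letters and not a site.

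Tigit encodes an inhibitory receptor for nectin family ligands and was the strongest of the 6 genes, with 9 peaks and 457 reads on the minus strand of chromosome 16. Its WT libraries held 80.2, 73.1 and 48.1 CPM (90, 93 and 66 reads). Its KO libraries held 76.1, 70.1 and 58.1 CPM (80, 56 and 72 reads). The Tfh4 libraries were the lowest in both genotypes, below all Tfh21 and Tfh214 libraries, though no neighbours in the order of levels differed beyond counting error. WT Tfh4 stood at 0.600 of WT Tfh21 (0.430 to 0.833) and 0.657 of WT Tfh214 (0.472 to 0.911), and on the log2(CPM + 1) scale it ranked 186 from the bottom of 12152 genes in the first of these. Of the 4 members measured Tigit alone was lower by 1.5-fold or more in those comparisons, a size reached by 4.53% and 5.89% of genes. In KO the same ratios were 0.764 (0.548 to 1.06) and 0.829 (0.576 to 1.20).

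Pooled over the genotypes, Tigit in Tfh4 stood at 0.676 of Tfh21 (0.536 to 0.851) and 0.734 of Tfh214 (0.578 to 0.932), both below 1 also under median-of-ratios scaling. Intervals below 1 were found for 8.93% and 5.92% of genes, and for 3.84% and 3.85% after that scaling. Tnfrsf9 was the other member below 1 for Tfh4 against Tfh21. KO and WT did not differ beyond counting error (1.02, 0.844 to 1.23), and the sign of that difference turned with the scaling. The TSS peak (chr16:43664158-43664906, mm9) held 50, 52 and 37 reads in WT and 49, 38 and 48 in KO, and the intron 2 peak (chr16:43661757-43662005) held 14, 20 and 8 in WT and 17, 4 and 14 in KO. In WT both were lowest in Tfh4. The share of all reads at start sites was also lowest in Tfh4 within each genotype (27.6% in WT and 29.7% in KO), and its part in the level of Tigit was not tested. Without the TSS peak Tigit stood at 0.621 in Tfh4 against Tfh21 (0.427 to 0.899) and at 0.712 against Tfh214 (0.482 to 1.0498), an interval that reached 1.

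Lag3 encodes an inhibitory receptor that binds MHC class II and lies next to Cd4 on chromosome 6. It had 3 peaks and 67 reads, the fewest of the 6. Its levels were 14.3, 11.01 and 8.01 CPM in WT (16, 14 and 11 reads) and 10.5, 5.01 and 8.88 CPM in KO (11, 4 and 11 reads). KO Tfh214 was the lowest and WT Tfh21 the highest, and the genotypes overlapped. None of its ratios, pooled or single, had an interval off 1, and at this depth the pooled KO to WT ratio of 0.774 allowed 0.454 to 1.295. Its TSS peak (chr6:124861719-124862038) held 29 reads, 5, 6 and 6 in WT and 7, 1 and 4 in KO. The peak in coding exon 2 (chr6:124860597-124860976) held 6, 5 and 4 in WT and 2, 1 and 1 in KO, and the one in intron 5 (chr6:124857907-124858062) held 5, 3 and 1 in WT and 2, 2 and 6 in KO. Exon 2 was lower in every KO library and intron 5 was not.

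Cd160, which encodes a receptor that binds the TNF receptor family member HVEM, had 6 peaks and 95 reads on chromosome 3. All 6 peaks were annotated to the 5′ UTR and none to a start site. Its levels were 9.80, 13.4 and 10.9 CPM in WT and 18.1, 23.8 and 11.3 CPM in KO. KO was the higher genotype in every population, at 1.84-fold in Tfh21 (0.834 to 4.29), 1.78-fold in Tfh214 (0.876 to 3.65) and 1.03-fold in Tfh4 (0.463 to 2.30). As at Havcr2, the ratio nearest 1 was in Tfh4, but the KO to WT ratio in Tfh4 relative to Tfh21 was 0.561 (0.174 to 1.79), so a difference between populations was not detectable at this depth. Pooled over populations KO stood at 1.48-fold (0.966 to 2.26). When pooled, KO was above WT by CPM at all 6 peaks (49.0% of all peaks with a symbol) and held more reads at 5 of them. The strongest (chr3:96616824-96617199) held 3, 6 and 3 reads in WT and 4, 7 and 4 in KO, and the next (chr3:96617199-96617344) held 3, 5 and 2 in WT and 5, 2 and 2 in KO. The single interval off 1 was KO Tfh4 over KO Tfh214, at 0.475 (0.220 to 0.999), and it reached 1 under median-of-ratios scaling.

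Tnfrsf4 encodes OX40 and had 4 peaks and 129 reads on chromosome 4. Its level was the most even of the 6, with 17.8, 17.3 and 18.2 CPM in WT and 22.8, 20.04 and 17.8 CPM in KO. No ratio of it had an interval off 1, and the pooled KO to WT ratio was 1.13 (0.786 to 1.62). Most reads lay in a peak just after the start (chr4:155387826-155388340), with 17, 15 and 17 in WT and 19, 8 and 16 in KO. KO Tfh214, the library with the fewest reads, held the fewest there. The peak at the transcript end (chr4:155389963-155390211) held 0, 1 and 3 in WT and 4, 5 and 1 in KO, 14 reads in all.

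Tnfrsf9 encodes 4-1BB and lies 5.09 Mb from Tnfrsf4. It had 14 peaks and 416 reads, and its strongest peak was not at a start but in intron 7 (chr4:150314064-150314565), 11956 bases downstream, with 32.5% of its reads. There WT held 22, 27 and 23 reads and KO 25, 19 and 19, with overlapping genotypes. The gene held 63.2, 59.0 and 55.3 CPM in WT and 75.2, 65.1 and 50.9 CPM in KO, with Tfh4 the lowest in each genotype. Pooled, Tfh4 stood at 0.771 of Tfh21 (0.608 to 0.978), but the interval reached 1 under median-of-ratios scaling (0.818, 0.645 to 1.04). In KO alone Tfh4 stood at 0.677 of Tfh21 (0.478 to 0.954), which also reached 1 after scaling (0.741, 0.523 to 1.045), and in WT at 0.875 (0.625 to 1.23). A second peak, in the 5′ UTR 1229 bases from the start (chr4:150295493-150295782), stood at 0.352 in Tfh4 against Tfh214 (0.133 to 0.852), with 8 and 18 reads. The pooled KO to WT ratio of the gene was 1.07 (0.875 to 1.298). Further 5′ UTR peaks, at chr4:150298531-150298729 and chr4:150299091-150299329, held 38 and 31 reads, from 2 to 8 in a library. Of the 7 peaks with 30 reads or more, the 5′ UTR peak 1229 bases from the start and the TSS peak of Tigit (0.715 for Tfh4 against Tfh21, 0.528 to 0.965) were the ones with an interval off 1. Among all peaks with 30 reads or more, 8.12% lay below 1 and 1.56% above for Tfh4 against Tfh21, and 6.35% below and 2.41% above for Tfh4 against Tfh214. For KO against WT 6.36% lay above and 1.99% below, and for Tfh214 against Tfh21 1.17% above and 2.04% below.

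**Figure D3:**
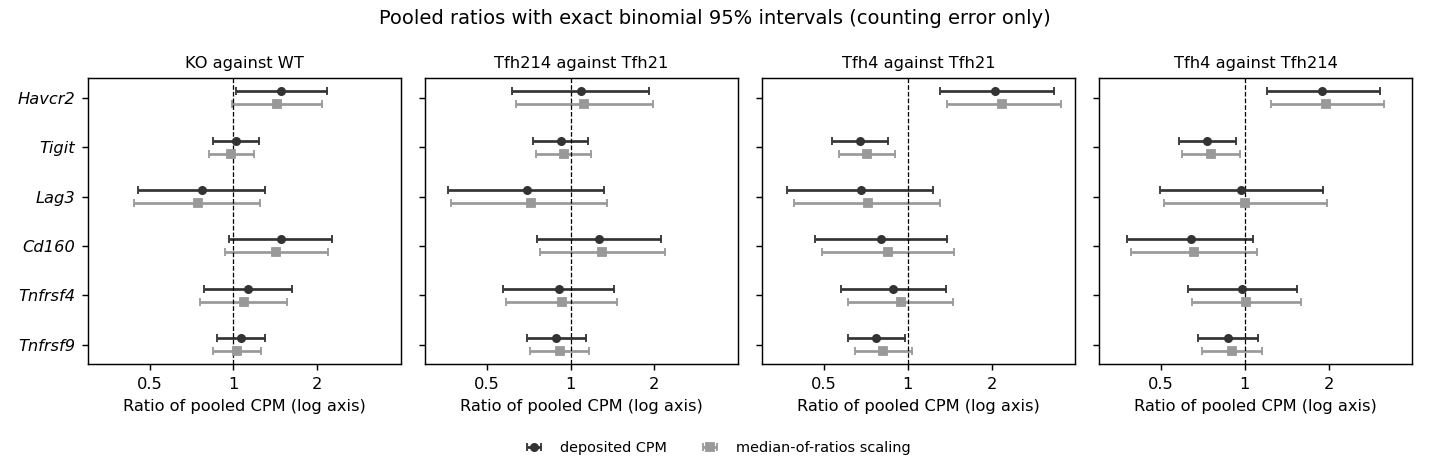
Ratio of pooled CPM (log axis) for each gene in 4 comparisons, with exact binomial 95% intervals for counting error only, as deposited (black) and after median-of-ratios scaling (grey). Havcr2 lay above 1 and Tigit below 1 in both Tfh4 comparisons under both scalings. The interval of Havcr2 for KO against WT and that of Tnfrsf9 for Tfh4 against Tfh21 reached 1 after scaling.

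An additive fit of genotype and population with limma over 13527 genes, with 2 residual degrees of freedom and Benjamini-Hochberg adjustment, called 6 genes for KO against WT (0.0444%) and none in the population comparisons (0%). None of the 6 members was called in any. All 6 had passed the minimum of 10 reads on average. The p-values set an effect against its spread over populations or genotypes, not over animals. Havcr2 differed by 0.84 ± 0.31 (SE) on the log2(CPM + 1) scale for KO against WT (adjusted p = 0.352) and by 1.14 ± 0.37 for Tfh4 against Tfh21 (adjusted p = 0.280). Tigit differed by -0.55 ± 0.16 for Tfh4 against Tfh21 (adjusted p = 0.244) and by -0.43 ± 0.16 for Tfh4 against Tfh214 (adjusted p = 0.460). Tnfrsf9 differed by -0.37 ± 0.17 for Tfh4 against Tfh21 (adjusted p = 0.400), and Cd160 by 0.55 ± 0.30 for KO against WT (adjusted p = 0.537). At an unadjusted p under 0.05 stood 1393 genes for KO against WT, among them 1 member, and 713, 1589 and 1276 genes for Tfh214 against Tfh21, Tfh4 against Tfh21 and Tfh4 against Tfh214, among them 0, 3 and 2 members. edgeR called 4, 0, 1 and 0 genes in these comparisons and DESeq2 1, 0, 0 and 0, with no member among them. The median difference of all genes was 0.05, -0.02, -0.09 and -0.06 in the same order. Without the KO Tfh4 library limma called Havcr2 for KO against WT (1.34, adjusted p = 0.0483), in a fit that called 89 of 13495 genes (0.66%). That library belongs to the population in which KO was not above WT, and over the 17 alternatives for Havcr2 the adjusted p ran from 0.0483 to 0.9999. Without both Tfh4 libraries, which leaves the same pairs of KO and WT, limma called 75 genes and 0 members. Both of these fits have fewer residual degrees of freedom than the fit over all libraries.

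Genes of the same pathways were read from lists, which hold no member. No gene of any list was called by limma in any comparison. Of the coinhibitory partners, 10 of 12 could be tested, and their median difference for Tfh4 against Tfh21 was -0.27, with 2 above 0, against -0.09 for all genes. The 3 with most reads were Btla, an inhibitory receptor that binds HVEM, at -0.44 ± 0.14, the ectoenzyme gene Entpd1 at -0.20 ± 0.16 and Cd101 at -0.14 ± 0.15 (log2, SE). For KO against WT the median of these partners was 0.15, with 9 of 10 above 0, against 0.05 for all genes. Costimulatory and TNF receptor partners had a median of 0.26 for KO against WT, with 10 of 11 above 0, and of -0.21 for Tfh4 against Tfh21, with 3 above 0. Of these, Tnfrsf1b, which encodes TNF receptor 2, ran from 83.7 CPM in WT Tfh4 to 134 CPM in KO Tfh21 and stood at 0.39 ± 0.11 for KO against WT. Cd28, the main costimulatory receptor gene of naive T cells, stood at 0.27 ± 0.11 and Cd226, whose product shares ligands with TIGIT, at 0.05 ± 0.13.

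Of the signalling genes none of 22 was above 0 for Tfh4 against Tfh21. Their median was -0.21, against -0.09 for all genes, and they ranged from -0.51 to -0.03. Fyn, a Src family kinase gene, held 366 to 451 CPM and stood at -0.29 ± 0.11, and Nfkb1, which encodes an NF-kB subunit, at -0.10 ± 0.12 with 205 to 259 CPM. Traf5, an adaptor gene of TNF receptors, stood at -0.17 ± 0.13. Of the regulators, 1 of 16 was above 0, with a median of -0.28. Tox, whose product is known for its part in exhausted T cells, stood at -0.23 ± 0.12, and the NFAT genes Nfatc1 and Nfatc2 at -0.27 ± 0.12 for each. Tigit at -0.55 and Tnfrsf9 at -0.37 thus lay on the same side of 0 as most genes of these lists, and Havcr2 at 1.14 on the other. This side was also that of the median of all genes. From start-site peaks only, all 60 genes called in this comparison were lower in Tfh4. The part of the lower start-site share of Tfh4 in these lists was not tested. For the ligands the median was -0.09, with 5 of 12 above 0, and the most read were Hmgb1, Pdcd1lg2 and Cd86 at -0.21, -0.11 and -0.06. Lists were chosen with earlier results of these data known, so the counts are descriptions.

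**Figure D4:**
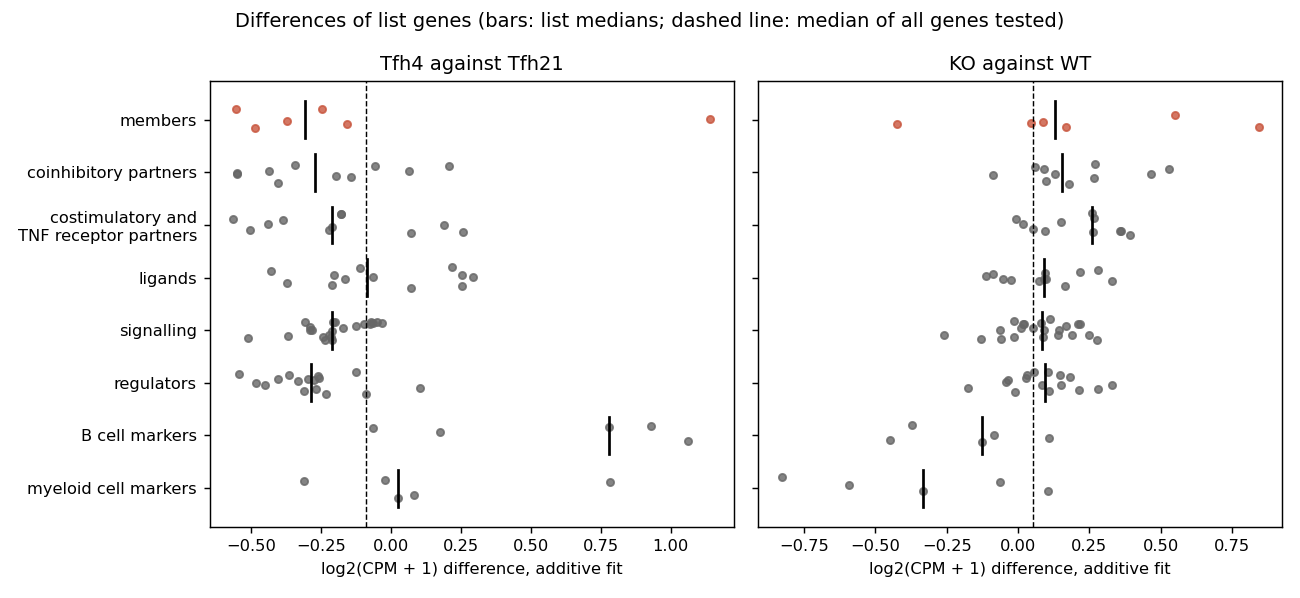
Fitted log2(CPM + 1) differences of the genes of each list (points; members in red) for Tfh4 against Tfh21 (left) and KO against WT (right). Bars are list medians and the dashed line is the median of all 13527 genes. No point passed the adjusted threshold. For Tfh4 against Tfh21 every signalling gene lay below 0, Havcr2 lay at 1.14, and 3 of 5 B cell markers lay at 0.78 or above.

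Markers of other cells were compared in the same fit, and none was called. Of the B cell markers tested, 4 of 5 were above 0 for Tfh4 against Tfh21, with a median of 0.78. They were led by Blnk, Ebf1 and Fcer2a at 1.06, 0.93 and 0.78, while Pax5 stood at -0.06. The summed level of the 7 B cell markers with peaks was 135, 183 and 191 CPM in WT and 124, 139 and 157 CPM in KO. Within WT and within KO this order of the populations was that of Havcr2. Over all libraries, KO Tfh21 held the lowest B cell sum and a Havcr2 level of 19.0 CPM, against 6.23 CPM in WT Tfh21. Of the myeloid markers tested 3 of 5 were above 0 for Tfh4 against Tfh21, with a median of 0.03, and 1 of 5 for KO against WT, with a median of -0.33. The summed myeloid level was 112, 102 and 117 CPM in WT and 99.9, 86.4 and 106 CPM in KO. Of the CD8 T and natural killer cell markers only 2 could be tested. For Tfh4 against Tfh21 Cd8b1 stood at 1.047, with a pooled interval above 1, and Klrb1c at -0.053. For KO against WT they stood at -0.434 and 0.104. The summed level of the 8 such markers with peaks was 23.2, 39.3 and 37.9 CPM in WT and 28.5, 20.04 and 38.8 CPM in KO. The part of other cells in the levels of Havcr2 was not tested. Of the 8 Tfh markers 1 was above 0 for Tfh4 against Tfh21, with a median of -0.41, and Cxcr5 and Il21 stood at -0.54 ± 0.17 and -0.62 ± 0.26. Tigit, at -0.55, lay on their side.

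Around Havcr2 the 14 peaks without a symbol within 50 kb stood at 1.24 for WT Tfh4 over WT Tfh21 (0.803 to 1.93) and at 1.21 for KO over WT in Tfh21 (0.761 to 1.94), against 4.32 and 3.05 for the gene itself. The nearest gene, Med7, which encodes a Mediator subunit, lay 12209 bases away and stood at 0.757 for Tfh4 against Tfh21 (0.579 to 0.988) and 1.26 for KO against WT (1.01 to 1.57). It was thus on the other side of 1 for the population and on the same side for the genotype. Fam71b, 46945 bases away with 1 peak in the window, stood at 2.71 for Tfh4 against Tfh21 (0.836 to 11.4) and 0.861 for KO against WT (0.375 to 1.91). Its single-pair ratios were 4.91 for WT Tfh4 over WT Tfh21 (0.595 to 226) and 3.20 for KO over WT in Tfh21 (0.257 to 168), as far from 1 as those of Havcr2 but with intervals that hold 1. Around Tigit, 25 peaks without a symbol stood at 0.810 for Tfh4 against Tfh21 (0.693 to 0.946), on the side of the gene at 0.676. The 9 peaks of other genes in that window stood at 1.01 (0.659 to 1.54), an interval that holds both values. Zbtb20, 29737 bases away, stood at 1.096 (0.946 to 1.27) over all its peaks, of which 8 lay in the window. The ratios of the other neighbours named here are also over all peaks of the gene. At Lag3 the neighbour Cd4 held 32.1 to 48.1 CPM and stood at 0.929 for KO against WT (0.723 to 1.19).

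Over the 6 libraries the genes closest in pattern were found by Pearson's correlation of log2(CPM + 1) among 10825 genes with a mean of at least 20 reads. With so few libraries, which also differ in depth and start-site share, high values are common, so counts above 0.9 stand beside them. For Havcr2 these were Metap2 (r = 0.978), Mpp2 and Cpeb4, with 32 genes above 0.9. Metap2, which encodes a methionine aminopeptidase, ran from 35.6 CPM in WT Tfh21 to 64.1 in WT Tfh4 and 64.6 in KO Tfh4, a narrower range than that of Havcr2. For Tigit they were Chn1os3, Ccnj and Flcn, with 215 genes above 0.9, and Chn1os3 ran from 46.3 CPM in WT Tfh21 to 14.6 in WT Tfh4. For Lag3 they were Tfpt, Slc25a17 and Mrpl19, for Cd160 Pik3ip1, Car7 and Rad23b, for Tnfrsf4 Eml2, Stk17b and Atmin, and for Tnfrsf9 Avpi1, Por and Spata32. Above 0.9 stood 46, 260, 226 and 317 genes for these 4 members. Among the members themselves the closest were Tnfrsf4 and Tnfrsf9 (r = 0.822), and Havcr2 ran against Tigit (r = -0.724, n = 6 libraries, no test).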

How the data were processed

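ATAC-seq values of 6 libraries were read from 1 table of peaks. The deposited values were CPM per peak, which sum to the same total in every library. Per the submitters' processing notes, Bowtie 1.3.0, MACS2 2.0, HOMER and mm9 were used; the notes as held here do not say for which step, nor how peaks were called or duplicates treated. Peak positions, sections and distances are as deposited. Whole reads were recovered from the value of 1 read, with at least 99.9989% of values within 0.02 reads of a whole number. A gene is the sum of the peaks with its symbol. Ratios of CPM carry exact binomial intervals and levels exact Poisson intervals. The additive model was fitted with limma 3.58.1 (R 4.3.3) on log2(CPM + 1), which understates the change of low genes, with a variance trend, over genes with a mean of at least 10 reads and with an adjusted p threshold of 0.05. An exact permutation test over 3 pairs of libraries cannot go below p = 0.25 and was not used. On simulated Poisson counts of 13527 genes for KO against WT, limma recovered 77.5% of 200 genes changed 2-fold and 98.0% of those changed 4-fold. The simulation held no population effect and no spread between libraries beyond counting, so these shares do not give the power in the real libraries. Alternatives were median-of-ratios scaling, other pseudocounts and filters, no trend, edgeR 4.0.16 and DESeq2 1.42.0 on recovered reads, other summaries of a gene, and libraries left out. Single peaks left out, ratios of ratios and the scaled order of Havcr2 levels were added after seeing the data. Python 3.11.15 with scipy 1.17.1 was used. Named were all members, their start-site, 2 strongest and 30-read peaks, up to 3 genes with most reads per list and 3 genes of like pattern per member; others were named after their values were seen. The members and lists were chosen with earlier results of these data known. Promoters came from RefSeq (GRCm38.p6), on a build other than that of the peaks, and were set against peaks only by distance from the start. Peak sequences were not used here.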

Additional observations from a re-analysis of the deposited data

Results flagged for a closer look

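As deposited, the KO to WT ratio of Havcr2 differed between Tfh4 and the other populations beyond counting error. In Tfh4 it was 0.295 of that in Tfh21 (0.0935 to 0.858) and 0.365 of that in Tfh214 (0.133 to 0.979). These are conditional exact intervals over single libraries, from 7 to 37 reads each. Such intervals lay below 1 for 2.96% and 3.9% of genes and above 1 for 2.34% and 2.76%. The second interval reached 1 under median-of-ratios scaling (0.383, 0.140 to 1.03). With each peak of the gene left out in turn, the first ran from 0.216 to 0.5005 with 6 of 7 intervals below 1, and the second from 0.294 to 0.458 with 2 of 7 below 1. Both use the same pair of Tfh4 libraries. Whether other pools of mice would show the difference was not tested.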

How the results depend on the processing

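No paired analysis was possible because every library carries the replicate number 1, beyond the matching of KO with WT by population that the additive fit already holds. The number of genes called for KO against WT, 6 as reported, was 11 with no filter on low values, 0 with no variance trend, 1 with DESeq2, 54 from start-site peaks only, 21 without the Tfh214 libraries and 75 without the Tfh4 libraries, and leaving out 1 library gave 3 to 89. For Tfh4 against Tfh21, 0 as reported, it was 1 with no filter and 1 with edgeR, 54 from the highest peak of each gene and 60 from start-site peaks, with 0 to 107 when 1 library was left out. For Tfh4 against Tfh214, also 0, it was 1 with no filter, 88 from the highest peak and 79 from start-site peaks, with 0 to 36 when 1 library was left out, and for Tfh214 against Tfh21 0 to 17. Members called for KO against WT were 0 to 1 when 1 library was left out, the 1 being Havcr2. Causes were not tested. Signs turned in these cases. Tigit for KO against WT stood at -0.0093 with median-of-ratios scaling, -0.021 with edgeR, -0.012 with DESeq2 and -0.067 without the Tfh4 libraries, and ran from -0.067 to 0.10 when 1 library was left out. Tnfrsf4 for Tfh4 against Tfh214 stood at 0.0036, 0.011 and 0.0068 under those 3 settings, 0.20 from the highest peak and 0.021 from start-site peaks, and ran from -0.20 to 0.10 when 1 library was left out. Tnfrsf9 for Tfh214 against Tfh21 stood at 0.055 from the highest peak. Leaving out 1 library also turned the sign of Havcr2 (-0.18 to 0.75) and Tnfrsf4 (-0.24 to 0.019) for Tfh214 against Tfh21, of Cd160 for Tfh4 against Tfh21 (-0.62 to 0.13) and of Lag3 for Tfh4 against Tfh214 (-0.28 to 0.58). Leaving out the start-site peak moved the ratio of Tigit for KO against WT from 1.02 to 0.810. Depth limits single peaks most, since 36 of the 43 held under 30 reads.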
